A study of Mus musculus with 24 samples.

Results

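The 10 genes described here encode enzymes of de novo nucleotide synthesis and of the serine pathway that feeds it: Ppat, Gart and Paics for purines, Cad and Umps for pyrimidines, Phgdh, Psat1 and Psph for serine, and Shmt1 and Shmt2 for the conversion of serine to glycine. They were taken by name from the count table, where each of the 10 names matched 1 of the 55401 genes, and all 10 passed the filter on low counts. RNA was sequenced from mouse oocytes, with 5 pooled cells in each reaction according to the series' design text, which also calls these cells embryos. The 12 deposited columns form 6 groups of 2. The groups are controls (con), oocytes exposed to polystyrene microplastics in the animal (in vivo PSMPs), culture controls (con-in vitro), oocytes exposed in culture (in vitro PSMPs), SAHA-treated oocytes (SAHA) and exposed oocytes overexpressing Hdac3 (PSMPs & OE-Hdac3). SAHA, or vorinostat, inhibits histone deacetylases, and Hdac3 encodes 1 of these enzymes. The labels read here give no strain, age, oocyte stage, particle size, dose or time. They do not say which control belongs to SAHA or by which route the overexpressing oocytes were exposed, so both candidates were used for each.

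De novo synthesis builds the purine ring stepwise on a phosphorylated ribose, using glycine and formyl groups carried by folate, while pyrimidines start from glutamine, bicarbonate and aspartate. Serine made from a glycolytic intermediate is split by the hydroxymethyltransferases into glycine and a folate-bound carbon unit, which links serine synthesis to both nucleotide branches. A full-grown oocyte is known to store maternal transcripts and to transcribe little, and it exchanges metabolites with the cumulus cells around it through gap junctions.

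Total counts per column ran from 6.22 M to 35.6 M, with both con-in vitro libraries at the low end. In vivo PSMPs counts were so alike in the 2 columns (a chi-square statistic of 0.444 per degree of freedom, below the counting noise, against 16.5 or more in every other group) that they entered as 1 sample. The 2 con libraries stood far apart, with a Pearson r of 0.539 between their log2 levels across genes, which are not independent replicates. At least 1 count was seen for 11640 to 12843 genes in the 4 control libraries and for 17559 to 20957 genes in the others. Hdac3 stood at 335.5 and 228 CPM (counts per M reads of a library size scaled by TMM factors) in PSMPs & OE-Hdac3 and between 7.16 and 37.4 CPM elsewhere. No label ties the libraries of a group to separate animals or cultures, and a p-value here therefore describes only how far these libraries spread, which may be technical. At least 14 of 15 oocyte markers were detected in every library. Of 23 cumulus and granulosa markers, 6 were detected in each con library, 19 in in vivo PSMPs, 8 and 6 in con-in vitro, 16 and 12 in in vitro PSMPs, 16 and 16 in SAHA, and 19 and 15 in PSMPs & OE-Hdac3. Of 6 blood and immune markers, at most 2 were detected in any library. The 13 mitochondrially encoded genes summed to between 1060 and 19826 CPM, with con 1 the highest.

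Gene positions in the deposited table are on mm10. The genes lie on 6 chromosomes, and Ppat (chr5:76913249-76951578, minus strand) and Paics (chr5:76951307-76967509, plus strand) are arranged head to head, with starts 271 bases apart and 272 shared exon bases. Gart lies at chr16:91621186-91646952 and Umps at chr16:33954782-33967038, both on the minus strand, and Cad at chr5:31054780-31078479 on the plus strand. Phgdh (chr3:98313170-98339990), Psat1 (chr19:15904678-15947337) and Psph (chr5:129765558-129787449) are all on the minus strand, as are Shmt1 (chr11:60788104-60811718) and Shmt2 (chr10:127517123-127522444). Genes on the other strand share exon bases with several of them, among them 1014 bases of Gart with Gm15964, 452 of Psph with Cct6a and 184 of Shmt1 with Smcr8. Whether the counting used strand is not given in the sources used here, so reads in these stretches are uncertain.

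The 3 upstream windows below are printed as examples. Gart and Psat1 had no count in any of the 4 control libraries, and Shmt2 had its highest level in con but its lowest in con-in vitro. Each holds the 250 bases before a RefSeq start on the minus strand, 5′ to 3′, read from RefSeq (GRCm38.p6, the same assembly as mm10), at chr16:91646973-91647222, chr19:15925060-15925309 and chr10:127522445-127522694. Capitals mark GGGCGG (the GC box) or CCAAT (the CCAAT box) on either strand, and none of the windows overlaps an annotated exon.
Gart: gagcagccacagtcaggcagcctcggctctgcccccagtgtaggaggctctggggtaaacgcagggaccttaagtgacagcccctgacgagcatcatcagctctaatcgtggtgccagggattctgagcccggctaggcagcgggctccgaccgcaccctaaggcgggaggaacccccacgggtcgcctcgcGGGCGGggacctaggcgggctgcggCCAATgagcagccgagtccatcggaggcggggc
Psat1: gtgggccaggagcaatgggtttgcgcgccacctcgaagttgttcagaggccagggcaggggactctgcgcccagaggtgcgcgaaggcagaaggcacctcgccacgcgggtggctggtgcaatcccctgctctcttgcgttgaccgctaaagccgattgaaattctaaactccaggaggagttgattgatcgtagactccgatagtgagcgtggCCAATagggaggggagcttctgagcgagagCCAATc
Shmt2: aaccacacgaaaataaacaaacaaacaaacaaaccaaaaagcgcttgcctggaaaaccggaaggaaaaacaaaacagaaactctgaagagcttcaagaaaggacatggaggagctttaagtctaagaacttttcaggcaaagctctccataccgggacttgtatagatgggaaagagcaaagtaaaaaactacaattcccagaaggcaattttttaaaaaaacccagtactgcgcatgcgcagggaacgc
The Gart window holds 1 GC box, 58 bases before the start, and 1 CCAAT box at 33. The Psat1 window holds 2 CCAAT boxes, at 36 and 6 bases, and the Shmt2 window neither motif, with a GC content of 40.8% against 68.0% for Gart and 59.6% for Psat1. Psph and Shmt1 also had their highest group mean in con. Their windows, not printed, hold 3 and 4 GC boxes, 2 and 1 CCAAT boxes, and 67.2% and 60.0% GC. Any link between these motifs and the levels was not tested. Of 32851 RefSeq promoter windows of this length, 32.7% hold a GC box and 33.8% a CCAAT box. The E-box CACGTG, the site of MYC-family factors, occurs in 6.02% of them and was found before Paics alone among the 10 genes, 203 bases before the RefSeq start in the window chr5:76951052-76951301. This window overlaps an annotated exon of Ppat, the head-to-head neighbour. The site is printed in capitals within 30 bases, and its part in the level of either gene was not tested.
Paics: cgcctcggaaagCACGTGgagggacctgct
The ATF4-type element TGATGNAA (3.45% of windows) was found before none of the 10.

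Scaled per kilobase of annotated length and averaged over the 6 group means, the order of levels was Shmt2 (16.6 CPM per kb), Paics (15.5), Umps (5.82), Phgdh (3.61), Psph (2.99), Shmt1 (2.76), Ppat (0.582), Gart (0.558), Cad (0.449) and Psat1 (0.281). Successive enzymes of a branch thus had very different levels: Paics averaged far above Ppat and Gart, and Umps far above Cad. By group, Paics stood above Shmt2 in CPM per kb in in vivo PSMPs (16.9 and 9.45), con-in vitro (16.8 and 4.32) and PSMPs & OE-Hdac3 (18.5 and 10.2), and below it in the other groups. At least 1 count was present for 5 and 6 of the 10 genes in con, for 8 and 7 in con-in vitro, and for all 10 in each of the other libraries.

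**Figure D1:**
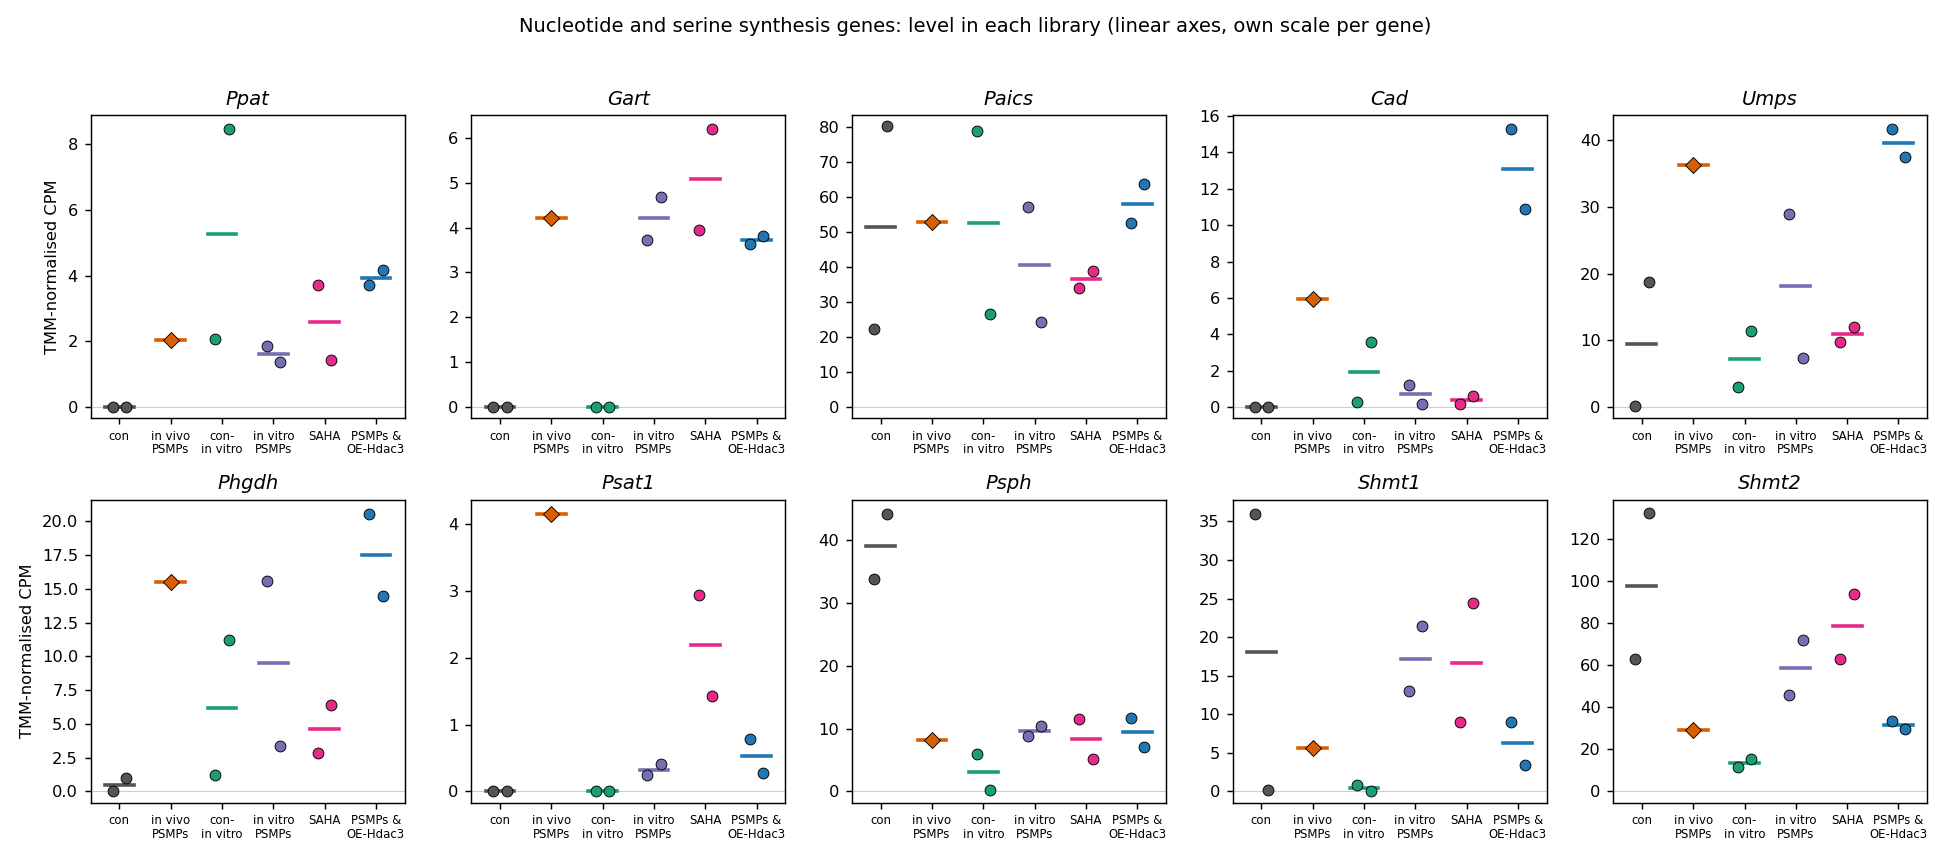
TMM-scaled CPM of each of the 10 genes (linear y axis, own scale per panel) in 11 libraries by group (x axis); circles are libraries, the diamond is the merged in vivo PSMPs sample and bars are group means. Gart and Psat1 lie at 0 in all 4 control libraries, and Psph and Shmt2 have their highest group mean in con.

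In the purine branch, Ppat and Gart had no counts in con, and Paics had many. Ppat, the amidotransferase of the committed first step, had 0 counts in both con libraries, 2.03 CPM in in vivo PSMPs, 2.08 and 8.46 in con-in vitro, 1.86 and 1.37 in in vitro PSMPs, 3.73 and 1.42 in SAHA, and 3.71 and 4.18 in PSMPs & OE-Hdac3. Only the con libraries were without counts of Ppat, and con-in vitro held the highest value. Gart, a single protein with 3 activities of the pathway, had 0 counts in con and con-in vitro, 4.22 CPM in in vivo PSMPs, 3.73 and 4.68 in in vitro PSMPs, 3.96 and 6.19 in SAHA, and 3.64 and 3.82 in PSMPs & OE-Hdac3. Every treated or exposed library lay above every control, and the 4 groups with counts overlapped in their order. Paics, which carries out the carboxylation and the succinocarboxamide step, had 22.3 and 80.5 CPM in con, 53.0 in in vivo PSMPs, 78.9 and 26.5 in con-in vitro, 57.1 and 24.1 in in vitro PSMPs, 34.1 and 38.9 in SAHA, and 52.5 and 63.8 in PSMPs & OE-Hdac3. Its 6 groups overlapped throughout their order, and the libraries of con, at 22.3 and 80.5 CPM, enclosed all the others.

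In the pyrimidine branch, both genes had their highest values in PSMPs & OE-Hdac3. Cad, which joins the first 3 enzymes of the pathway in 1 protein, had 0 counts in either con library, 5.92 CPM in in vivo PSMPs, 0.296 and 3.55 in con-in vitro, 1.21 and 0.161 in in vitro PSMPs, 0.170 and 0.625 in SAHA, and 15.3 and 10.9 in PSMPs & OE-Hdac3. The overexpressing libraries and in vivo PSMPs stood apart from all others, while con-in vitro, in vitro PSMPs and SAHA overlapped. Umps, which makes UMP from orotate, had 0.0694 and 18.8 CPM in con, 36.3 in in vivo PSMPs, 2.96 and 11.5 in con-in vitro, 29.0 and 7.34 in in vitro PSMPs, 9.78 and 12 in SAHA, and 41.7 and 37.5 in PSMPs & OE-Hdac3. The order began with PSMPs & OE-Hdac3 and in vivo PSMPs, and the 4 groups below them overlapped.

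The 3 serine synthesis genes did not share an order of groups. Phgdh, the dehydrogenase of the first step, had 0 and 1.03 CPM in con, 15.5 in in vivo PSMPs, 1.19 and 11.2 in con-in vitro, 15.6 and 3.39 in in vitro PSMPs, 2.83 and 6.42 in SAHA, and 20.5 and 14.4 in PSMPs & OE-Hdac3. Con lay below every other library, and the other 5 groups overlapped with their neighbours in the order. Psat1, the aminotransferase of the second step, had 0 counts in con and con-in vitro, 4.15 CPM in in vivo PSMPs, 0.243 and 0.404 in in vitro PSMPs, 2.94 and 1.42 in SAHA, and 0.780 and 0.273 in PSMPs & OE-Hdac3. Its in vitro PSMPs level rested on 3 and 5 counts, and in vivo PSMPs and SAHA stood above the remaining groups without overlap. Psph, the phosphatase of the last step, had 33.8 and 44.2 CPM in con, 8.11 in in vivo PSMPs, 5.93 and 0.273 in con-in vitro, 8.83 and 10.4 in in vitro PSMPs, 11.5 and 5.11 in SAHA, and 11.7 and 7.09 in PSMPs & OE-Hdac3. Here con was the highest group, above every other library, the reverse of Phgdh.

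Both hydroxymethyltransferases were lowest in con-in vitro. Shmt1, the cytosolic enzyme, had 36 and 0.129 CPM in con, 5.64 in in vivo PSMPs, 0.889 and 0 in con-in vitro, 13 and 21.4 in in vitro PSMPs, 8.99 and 24.4 in SAHA, and 9.04 and 3.45 in PSMPs & OE-Hdac3. The 2 con libraries held 1037 and 5 counts of Shmt1 and so enclosed every other group but con-in vitro. Shmt2, the mitochondrial enzyme, had 62.9 and 132.8 CPM in con, 29.4 in in vivo PSMPs, 11.6 and 15.3 in con-in vitro, 46.0 and 72.0 in in vitro PSMPs, 63.2 and 94.2 in SAHA, and 33.7 and 29.7 in PSMPs & OE-Hdac3. Con, SAHA and in vitro PSMPs overlapped in that order, followed without overlap by PSMPs & OE-Hdac3, in vivo PSMPs and con-in vitro.

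**Figure D2:**
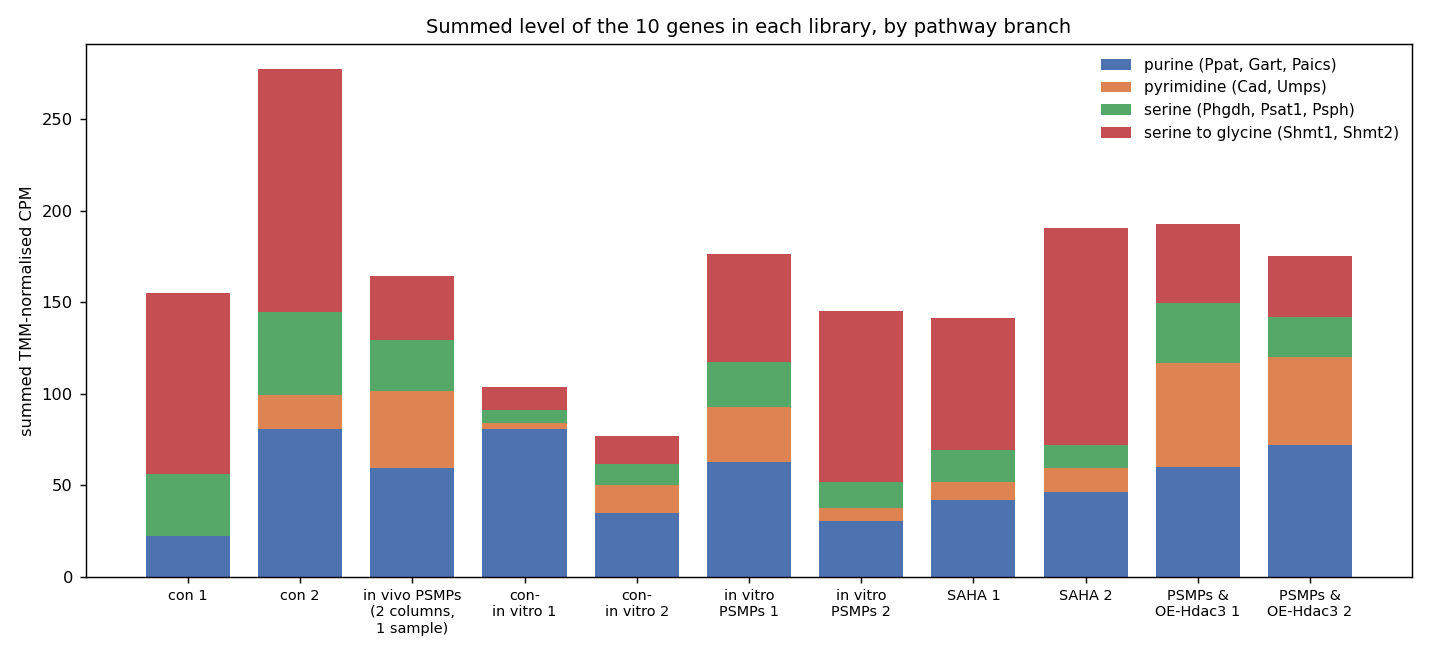
Summed TMM-scaled CPM of the 10 genes (y axis, from 0) in each library (x axis), stacked by branch of the pathway. The hydroxymethyltransferases made up 98.9 and 132.9 CPM of the con sums of 155 and 277.4 CPM, and 12.5 and 15.3 CPM of the con-in vitro sums of 103.8 and 76.7 CPM.

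Exposure in the animal was compared with con. Cad, Gart, Ppat and Psat1, each at 0 counts in both con libraries, were higher in in vivo PSMPs, and no member was lower: 4 of 10 passed edgeR's quasi-likelihood test at an adjusted p of 0.05, where 4.88% of all 16736 genes tested did (4.59% higher and 0.287% lower). Measured against a floor of 3 counts over both con libraries, Cad was at least 134-fold higher (adjusted p = 0.0493), Gart at least 95.3-fold (0.0463), Psat1 at least 93.5-fold (0.0463) and Ppat at least 45.9-fold (0.0463). These bounds cover counting error only and not the spread between the con libraries, which held 1037 and 5 counts of Shmt1. The 4 genes cover the first and a middle step of purine synthesis, the entry of pyrimidine synthesis and the second step of serine synthesis. Of the other members, Phgdh had a log2 fold change of 4.88 ± 2.03 (SE, adjusted p = 0.163) and Umps of 1.95 ± 1.86 (0.576). Shmt2 stood at -1.74 ± 0.66 (0.128) and Psph at -2.26 ± 1.47 (0.383). Paics stood at 0.04 ± 0.89 (1) and Shmt1 at -1.68 ± 2.32 (0.732). The median over the 10 genes was 3.41 on the log2 scale, also with the 4 at their bounds, beside 0.25 over all genes tested. Among all genes tested, 21.0% were at 0 in both con libraries, as were 4 of the 10 members.

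The calls in in vivo PSMPs rest on 1 sample and on a spread borrowed from the other groups: 0 members passed when the 2 groups were fitted alone, when the filter was applied to the 11 libraries, or without any 1 of the in vitro PSMPs, SAHA or PSMPs & OE-Hdac3 libraries, whereas 6 passed without con 1 (5 higher, and Shmt2 lower) and 6 without con 2 (all higher), where 16.8% and 25.9% of all genes passed. Shmt2 stood at -2.18 on the log2 scale without con 1. DESeq2 called Shmt2 lower (adjusted p = 0.0304) and called 16.1% of all genes in either direction. With the in vivo PSMPs columns as 2 libraries, 25% of all genes passed. That setting counts 1 sample as 2, so its call of Shmt2 adds no evidence. Of 23 cumulus and granulosa markers, 19 were detected in in vivo PSMPs against 6 in each con library. Over all genes 17559 were detected there against 12316 and 12843. The markers summed to 657 CPM against 843 and 596 CPM. Of the 18 tested, 2 were called higher and 0 lower, beside 4.59% and 0.287% of all genes. A fold change above 0 was seen for 14 of the 18, and for 54.6% of all genes. Inha, an inhibin subunit of granulosa cells and 1 of the 2 called, stood at 59.4 CPM against 0 counts in con. The part of these markers in the results was not tested. In pooled cells a smaller number of cells of a type and less RNA per cell cannot be told apart.

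Exposure in culture was compared with con-in vitro. Gart and Shmt2 were higher in in vitro PSMPs, and no member was lower: 2 of 10 passed, beside 15.4% of all genes (8.57% higher and 6.78% lower). Gart was at least 9.86-fold higher than the floor in con-in vitro (adjusted p = 0.0328). Shmt2 rose from 13.4 ± 2.63 CPM (SD, n = 2) to 59.0 ± 18.4 CPM (n = 2), a log2 fold change of 2.13 ± 0.52 (adjusted p = 0.0263), beside a median of 0.71 over all genes. Shmt1, with 3 counts in the con-in vitro libraries together, was 40.4 times as high in in vitro PSMPs (95% Poisson interval 13.7 to 197, counting error only), with an adjusted p of 0.141 in the test across libraries. Psat1, at 0.323 CPM in in vitro PSMPs, lay under the con-in vitro floor of 0.426 CPM, and no fold is given for it.

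The remaining members had no common direction. Umps had a log2 fold change of 1.33 ± 1.63 (adjusted p = 0.599), Phgdh of 0.61 ± 1.65 (0.829) and Psph of 1.64 ± 1.14 (0.338). On the other side of 0 lay Cad at -1.48 ± 1.51 (0.52), Ppat at -1.70 ± 1.19 (0.347) and Paics at -0.37 ± 0.74 (0.753), of which Paics changed sign to 0.70 when library totals replaced the TMM factors. With that scaling the all-gene median went from 0.71 to 1.70, and Shmt2 to 3.09. The calls of Gart and Shmt2 were lost in some fits without 1 library, each with 1 library left in a group. Both were lost also where a library of SAHA, a group outside the comparison, was left out, since the groups share 1 estimate of the spread. Other members gained a call in other such fits, and the calls over all genes moved as well. Without single libraries the log2 fold change of Shmt2 ran from 1.78 to 2.42. Cumulus and granulosa markers summed to 998 and 1238 CPM in in vitro PSMPs against 257 and 232 CPM in con-in vitro, most of it Serpine2, at 1052 against 171 CPM on average. Of the 18 tested, 9 had a fold change above 0 (median 0.24). Gja1, a gap junction protein, was lower, at 0.081 ± 0.115 against 25.4 ± 32.8 CPM (SD, n = 2, adjusted p = 0.0471), so the con-in vitro libraries stood far apart. Oocyte markers, 6 of 15 of them called higher, summed to 42851 and 55266 CPM against 12302 and 13384 CPM; the part of either list in these results was not tested.

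Gart was thus called in both exposures, each with its own control. Whether the 2 effects differed was tested as a difference between the 2 fold changes, in which 3 of 10 members passed beside 11.3% of all genes (4.87% with the larger value in culture and 6.4% with the larger value in the animal). Shmt2 differed by 3.87 ± 0.86 on the log2 scale (adjusted p = 0.0233), standing at -1.74 against con in the animal, short of the threshold, and at 2.13 against con-in vitro in culture. Ppat and Cad also passed (adjusted p = 0.0216 and 0.0332), with the larger effect in the animal, where con had no counts. No member passed in a fit to these 4 groups alone. All 3 calls were lost in some fits without 1 library, each with 1 library left in a group. This held also where a library of SAHA, a group outside the contrast, was left out. Other members gained a call in other such fits, and the calls over all genes moved as well. Without single libraries the difference for Shmt2 ran from 3.30 to 4.31. The 2 controls themselves differed in all 3 genes, as given below for con-in vitro against con.

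SAHA-treated oocytes had Gart and Shmt2 above con-in vitro, and Gart, Ppat and Psat1 above con. Against con-in vitro 2 of 10 members passed, both higher, beside 19.8% of all genes (11.7% higher and 8.14% lower). Gart was at least 11.9-fold higher (adjusted p = 0.0253), and Shmt2 rose to 78.7 ± 21.9 CPM (SD, n = 2), a log2 fold change of 2.55 ± 0.53 (adjusted p = 0.0113). Psat1, at least 5.11-fold above the floor, lay just outside the threshold (adjusted p = 0.0507). Shmt1 was 39.1 times as high (95% Poisson interval 13.3 to 190), with an adjusted p of 0.129. The comparisons of in vitro PSMPs and of SAHA with con-in vitro share their control libraries.

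Against con, 3 of 10 members passed in SAHA, all higher, beside 27% of all genes (20.2% higher and 6.75% lower). Gart was at least 114-fold higher (adjusted p = 0.0112), Ppat at least 58.1-fold (0.0131) and Psat1 at least 49.2-fold (0.0148), while Cad, with 3 and 11 counts in SAHA, missed the threshold (0.0563). The serine phosphatase Psph had a log2 fold change of -2.23 ± 1.12 (0.174). No member passed against con without either SAHA library or in a fit to the 2 groups alone. Against con-in vitro 0 passed without SAHA 2 and 1 without SAHA 1 or without any 1 in vitro PSMPs or PSMPs & OE-Hdac3 library. Summed cumulus and granulosa markers were 1620 and 1747 CPM in SAHA, above both controls, of which Serpine2 averaged 1601 CPM. Gja1 was lower than in con-in vitro, at 0.0849 ± 0.0398 against 25.4 ± 32.8 CPM (SD, n = 2, adjusted p = 0.0397). Oocyte markers summed to 57865 and 62981 CPM, with 8 of 15 called higher against con-in vitro, and 5 higher and 1 lower against con; the part of either list was not tested.

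**Figure D3:**
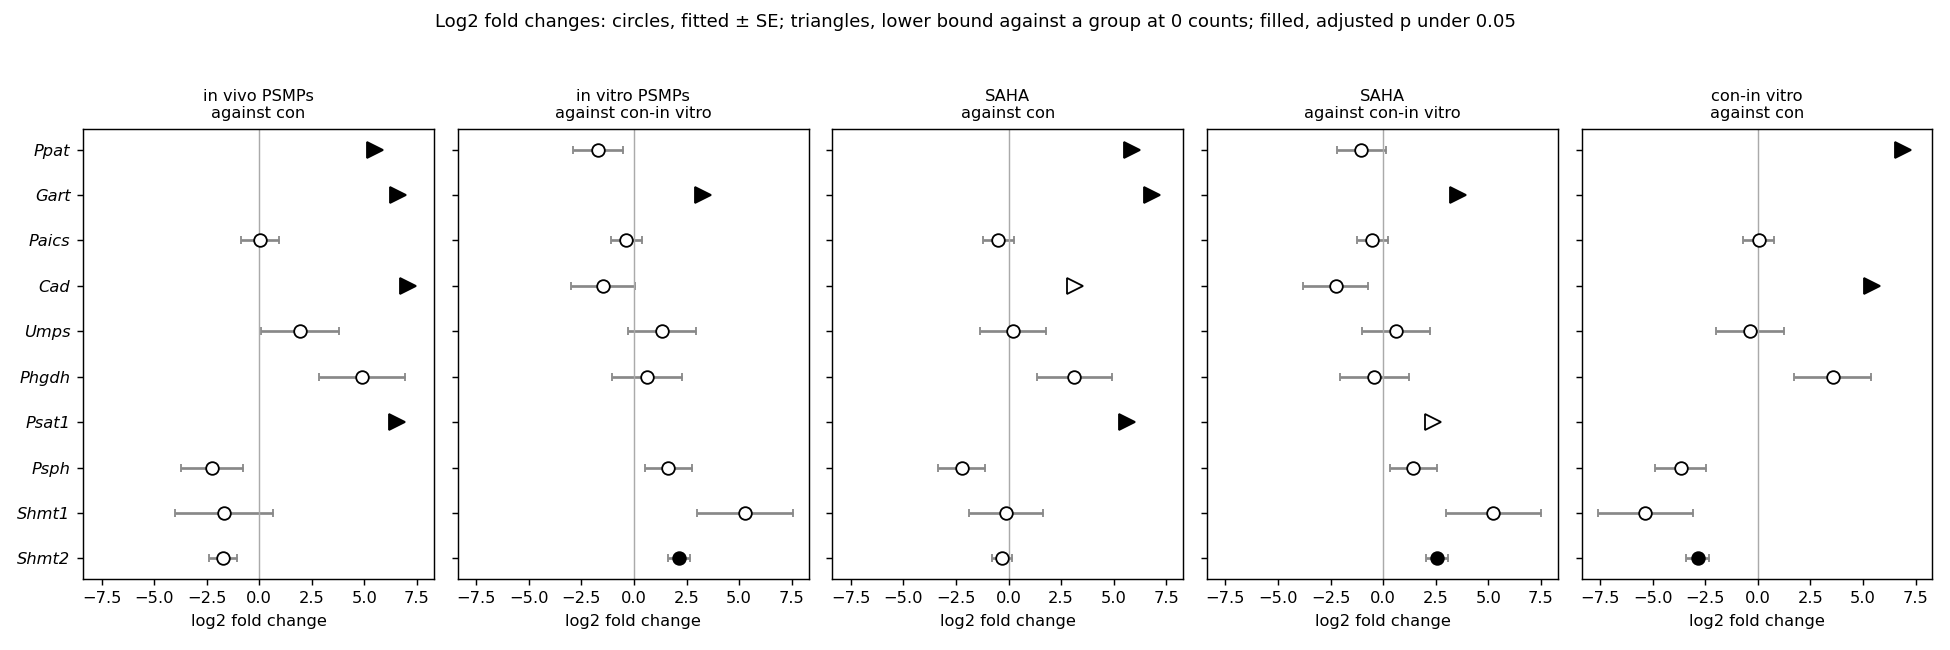
Log2 fold change (x axis) of each gene (y axis) in 5 comparisons. Circles are fitted values with their SE. Triangles are lower bounds, for counting error only, against a group at 0 counts, and filled symbols have an adjusted p under 0.05. Genes at or under the floor in both groups carry no symbol. Filled symbols are 4 in in vivo PSMPs, 2 in in vitro PSMPs, 3 and 2 in SAHA, and 3 between the controls.

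Overexpression of Hdac3 in exposed oocytes was set against each exposed group. Against in vitro PSMPs, 0 of 10 members passed edgeR's test, beside 4.83% of all genes (1.85% higher and 2.98% lower), with 1 at an unadjusted p under 0.05 and 1 called by DESeq2. That member was Cad, which stood at 13.1 ± 3.09 CPM (SD, n = 2) against 0.688 ± 0.745 CPM (n = 2), without overlap, a log2 difference of 4.24 ± 1.62 (adjusted p = 0.2 in edgeR). In a fit to the 2 groups alone Cad passed (adjusted p = 0.00795, over all alternatives 0.00795 to 0.66), as did 39.3% of all 13984 genes tested there. Umps stood at 39.6 ± 2.93 CPM against 18.2 ± 15.3 CPM, a log2 difference of 1.12 ± 1.60 (0.748), and Shmt2 at 31.7 ± 2.80 CPM against 59.0 ± 18.4 CPM, one of -0.90 ± 0.50 (0.37). In neither of these did the libraries overlap, but the share of all genes without overlap was not computed. With 2 libraries a group, no weight is put on this separation or on that of Cad. Oocyte markers summed to 22697 and 26594 CPM in PSMPs & OE-Hdac3, with 4 of 15 called lower than in in vitro PSMPs, and cumulus and granulosa markers to 254 and 262 CPM; their part was not tested.

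Against in vivo PSMPs, 0 members passed edgeR's test, as did 0% of all genes, with 0 members at an unadjusted p under 0.05 and 0 called by DESeq2. Psat1 had the lowest log2 value, -2.95 ± 1.34 (adjusted p = 0.385), with 12 and 3 counts in PSMPs & OE-Hdac3 and 161 and 161 in the in vivo PSMPs columns, and Cad stood at 1.14 ± 1.81 (0.914). Both passed in a fit to these 2 groups alone, where the 2 overexpressing libraries give the only spread and 46.5% of all 15506 genes tested passed.

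The controls themselves differed in 3 of the 10 genes, beside 25.1% of all genes (14.7% higher and 10.5% lower in con-in vitro). Ppat was at least 119-fold higher in con-in vitro than the floor in con (adjusted p = 0.00665), and Cad at least 43.4-fold (0.0269). Cad had 1 and 13 counts in the con-in vitro libraries, and without con-in vitro 2 it did not pass (log2 fold change 5.57, adjusted p = 0.144). Shmt2 fell from 97.8 ± 49.4 CPM in con to 13.4 ± 2.63 CPM, a log2 fold change of -2.86 ± 0.54 (adjusted p = 0.00610). Psph stood at -3.66 ± 1.21, short of the threshold (0.0557). Con held 36.1 times the Shmt1 level of con-in vitro (95% Poisson interval 12.3 to 175), with an adjusted p of 0.122, but nearly all of it in con 1. Phgdh stood at 3.56 ± 1.82 (0.193) and Umps at -0.38 ± 1.61 (0.996). In a fit to the 2 groups alone 0 members passed, as did 7.5% of all genes tested there. With single libraries left out, which leaves 1 library in a group, calls were lost in some fits and gained in others. The call of Cad was lost also where a library of SAHA or PSMPs & OE-Hdac3, groups outside the comparison, was left out. The calls over all genes moved as well. Without single libraries the log2 fold change of Shmt2 ran from -3.30 to -2.40. Oocyte markers summed to 53241 and 53116 CPM in con against 12302 and 13384 CPM in con-in vitro, with 6 of 15 called lower, as were 4 of the 13 mitochondrially encoded genes. Of 18 cumulus and granulosa markers tested, 1 was higher and 2 lower in con-in vitro. Gja1 stood at 25.4 ± 32.8 CPM against 0 counts (adjusted p = 0.0156), and Serpine2 at 171 ± 34.8 against 660 ± 191 CPM (0.00333). The part of these lists was not tested.

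Several members turned on 1 con library. Without con 1, which held 1037 of the 1042 con counts of Shmt1, this gene was higher in in vivo PSMPs by 5.38 on the log2 scale and in SAHA by 6.94. Without con 2, which held 729 of the 731 con counts of Umps, Umps was higher in con-in vitro than in con by 6.37. For in vivo PSMPs against con, leaving out con 2 gave Umps a log2 fold change of 8.87 and leaving out con 1 one of 0.95. These fits leave 1 con library, and their calls are not read. All 40 con counts of Phgdh were in con 2. Without it the fitted values for Phgdh were 11.04 in in vivo PSMPs and 9.54 in con-in vitro. They stand against a con library at 0 counts, depend on the prior count and are not read as sizes. With every library in, DESeq2 called Phgdh in both (adjusted p = 0.0477 and 0.0387), where it called 16.1% and 34.9% of all genes. The 2 con libraries gave opposite signs for Shmt1 against con and for Umps between the controls, and no direction is drawn for these.

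Other genes of these pathways showed where the 10 lie within them. Of the 10 remaining de novo purine genes, 0 were called by edgeR in in vivo PSMPs against con (5 at an unadjusted p under 0.05), 4 were higher in SAHA against con (20.2% of all genes) and 5 were higher in con-in vitro against con (14.7% of all genes). Gmps, which makes GMP, was 168 ± 2.44 CPM in con-in vitro, 83.7 ± 16.2 in SAHA and 15.7 ± 14.3 CPM in con (adjusted p = 0.00687 and 0.0240). Adss, which starts the branch to AMP, was 430 ± 190 CPM in con-in vitro against 160 ± 40.7 CPM in con (0.0353) and 134 ± 7.10 CPM in SAHA (0.0244).

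Of 11 genes that carry pyrimidine synthesis on to CTP and the DNA precursors, 4 rose in in vitro PSMPs and 4 in SAHA against con-in vitro, where 8.57% and 11.7% of all genes were higher. The oocyte markers given above were higher in the same libraries. Dut, the dUTPase, stood at 231 ± 61.3 CPM in in vitro PSMPs and 289 ± 8.74 CPM in SAHA against 32.0 ± 26.0 CPM (adjusted p = 0.0102 and 0.00563). Dctd, the dCMP deaminase, stood at 145 ± 36.9 and 201 ± 3.65 CPM against 45.1 ± 18.1 CPM (0.0187 and 0.00555). Ctps, which makes CTP, and Rrm2, a subunit of ribonucleotide reductase, were the others called in both. In PSMPs & OE-Hdac3 against in vitro PSMPs, where 2.98% of all genes and 4 of 15 oocyte markers were lower, 3 of the 11 fell: Rrm2b, the other small reductase subunit, from 330 ± 93.3 to 55.6 ± 8.33 CPM (0.0169), Ctps from 485 ± 70.9 to 147 ± 3.85 CPM (0.0275), and Rrm2 from 164 ± 69.1 to 46.9 ± 1.09 CPM (0.0346). Cad, at the head of the same branch, stood the other way in value.

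Of 12 salvage genes, which recycle bases and nucleosides, 4 rose in in vitro PSMPs against con-in vitro, where 8.57% of all genes were higher. These were Hprt, from 24.6 ± 20.1 to 314 ± 72.2 CPM (adjusted p = 0.00565), Dguok, Pnp and Adk. Hprt, Dguok, Pnp and Adk also rose in SAHA, with Hprt at 432 ± 68.4 CPM (0.00299), and 1 other gene of the list was lower. Over all genes 11.7% were higher there and 8.14% lower. All 4 were lower in con-in vitro when set against con, where 10.5% of all genes were lower. Oocyte markers moved the same way, with 6 and 8 of 15 higher in in vitro PSMPs and SAHA and 6 lower between the controls. Their part was not tested. In PSMPs & OE-Hdac3 Hprt fell to 34.5 ± 0.381 CPM (0.0230). Dguok, the mitochondrial deoxyguanosine kinase, was also lower in in vivo PSMPs, at 25.3 CPM against 151 ± 55 CPM in con (0.0488).

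Of 12 folate genes 10 were tested, and at most 1 passed in any comparison. In in vitro PSMPs against con-in vitro 0 passed edgeR's test (2 at an unadjusted p under 0.05). A fold change above 0 was seen for 8 of the 10, and for 60.7% of all genes. The median was 3.73 on the log2 scale beside 0.71 over all genes. In SAHA against con-in vitro 8 of the 10 also lay above 0 (58.4% of all genes), with a median of 3.55 beside 0.66. Only 4 and 5 of the 12 had reads in the con-in vitro libraries. Fitted sizes for genes without reads there depend on the prior count, so neither median is read as a size of change. Summed folate CPM was 266 and 300 (con-in vitro), 320 and 445 (in vitro PSMPs), and 365 and 442 (SAHA). Against con, 1 folate gene was higher in in vivo PSMPs, beside 4.59% of all genes. Mthfd2, the mitochondrial partner of Shmt2, was 165 ± 10.5 CPM in con-in vitro against 368 ± 6.59 CPM in con (adjusted p = 0.0363). Mthfd1, its cytosolic relative, was 11.2 ± 7.58 CPM in SAHA against 69.0 ± 6.84 CPM in con-in vitro (0.0158). Among 8 serine transport and use genes tested, 3 passed in in vivo PSMPs against con (2 higher, 1 lower). Over all genes 4.59% were higher there and 0.287% lower. In SAHA against con 4 passed (3 higher, 1 lower), beside 20.2% of all genes higher and 6.75% lower. The lower gene in both was Sptlc1, a subunit of the enzyme that joins serine to a fatty acid for sphingolipids, at 112 CPM in in vivo PSMPs against 433 ± 24.2 CPM in con (0.0463), and con-in vitro was likewise below con for Sptlc1.

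Of 8 regulators of these pathways, 7 were tested. Against con-in vitro, 1 was higher and 2 lower in in vitro PSMPs, beside 8.57% and 6.78% of all genes. In SAHA against con-in vitro 1 was higher and 3 lower, beside 11.7% and 8.14% of all genes. In PSMPs & OE-Hdac3 against in vitro PSMPs 2 were higher and 0 lower, beside 1.85% and 2.98% of all genes. Atf4, an activator of serine synthesis genes, was 359 ± 1.24 CPM in PSMPs & OE-Hdac3 against 48.3 ± 12.8 CPM in in vitro PSMPs (adjusted p = 0.0207), and 22.4 ± 0.801 CPM in SAHA against 149 ± 38.8 CPM in con-in vitro (0.00832). E2f1, a driver of S-phase genes, was 112 ± 29.1 CPM in PSMPs & OE-Hdac3 against 12.4 ± 5.69 CPM in in vitro PSMPs (0.0206). E2f1 stood at 275 ± 52.5 CPM in con and lower in con-in vitro, at 53.9 ± 26.8 CPM (0.0176). In vitro PSMPs and SAHA were below con-in vitro for E2f1 (0.0356 and 0.0179). Max, the partner of MYC, was lower in in vitro PSMPs and SAHA than in con-in vitro, at 51.6 ± 6.45 and 33.3 ± 5.97 CPM against 128 ± 25.1 CPM (0.0429 and 0.00771). Mlx, of the same list, went the other way, at 61.4 ± 14.7 and 83.3 ± 0.261 CPM against 16.5 ± 6.08 CPM (0.0206 and 0.00739).

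The 10 genes were also joined into a mean profile, the average of their z-scored log2(CPM + 1) over the 11 libraries. It was lowest in con 1 (-0.69) and con-in vitro 1 (-0.67) and highest in PSMPs & OE-Hdac3 1 (0.60) and in vivo PSMPs (0.53). Gart (r = 0.87), Umps (0.83) and Phgdh (0.75) followed it most closely and Psph (0.02) and Shmt2 (0.18) least, each gene being itself part of the profile. Among named genes outside the lists, the most alike were Nsl1 (r = 0.976), Zfp42 (0.964), Uqcc2 (0.958), Pdcd5 (0.956) and Psmd13 (0.955). These are correlations over 11 libraries that share their groups and depths, given as a description. Nsl1 was at 0 and 0.360 CPM in con, 0 and 0.273 CPM in con-in vitro and 1.05 to 5.20 CPM in the other libraries, so the 4 control libraries were its lowest.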

How the data were processed

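The values are the authors' deposited whole-number counts per gene, with annotated length and mm10 position, for 12 RNA columns. Per the submitters' processing notes, the tools were HISAT2, Bowtie2 2.2.5, featureCounts, fastp 0.12.4, DESeq2, deepTools 3.5.1, Picard and SAMtools, without their roles. H4K16ac CUT&Tag libraries were not analysed here.

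From the counts, edgeR 4.0.16 (R 4.3.3, limma 3.58.1) kept 16736 genes by its filter (minimum count 10 over the 12 columns). The in vivo PSMPs columns were merged as a rounded mean, leaving 11 libraries. TMM factors ran from 0.542 to 1.57. A robust quasi-likelihood fit with 1 term per group (5 residual degrees of freedom) was tested over all genes with Benjamini-Hochberg adjustment at 0.05. A group at 0 gave a bound against 3 counts over the group (0.0443 CPM in con, 0.426 CPM in con-in vitro), and 1 to 3 counts a ratio with an exact 95% Poisson interval. Both the bounds and the intervals cover counting error only, not the spread between libraries. The procedure was tested on simulated data.

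All 10 members are named in every group. From the other lists at most 4 genes per comparison were named, by smallest p among those past the threshold at 10 CPM or more, and the profile named the 5 closest genes. The members and lists were chosen with earlier results of these data known. Alternatives were other filters, scalings, DESeq2 1.42.0, the compared groups alone, a replicate block, and each column left out. Library totals, the filter on 11 libraries and 2 separate in vivo columns were added after the data were seen.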

Additional observations from a re-analysis of the deposited data

Results flagged for a closer look

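The effects of exposure in the animal and in culture, each against its own control, differed by edgeR's test of the difference in 3 of the 10 genes, where 11.3% of all genes passed. For Shmt2 the difference was 3.87 on the log2 scale, culture minus animal. For Ppat it was -9.92 and for Cad -11.23, and these fitted sizes depend on the prior count, since con had no reads of either gene. Con-in vitro against con had fitted log2 fold changes of 9.59 for Ppat, 8.14 for Cad and -2.86 for Shmt2. This difference between the controls enters the contrast. In vitro and in vivo PSMPs stood at 1.62 and 2.03 CPM for Ppat, 0.688 and 5.92 for Cad, and 59.0 and 29.4 for Shmt2. The source of the difference was not tested.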

How the results depend on the processing

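With 2 libraries a group or 1, and 0 counts in whole groups, the number of members called moved with the setting. Fitted to the compared groups alone, it was 0 for in vivo PSMPs against con, for the difference between the PSMPs effects, for SAHA against con and for con-in vitro against con, 1 for PSMPs & OE-Hdac3 against in vitro PSMPs and 2 against in vivo PSMPs. DESeq2 called 5 for the difference, 4 for SAHA against con-in vitro, 1 for PSMPs & OE-Hdac3 against in vitro PSMPs and 6 for con-in vitro against con. The filter on 11 libraries left 0 in in vivo PSMPs, with adjusted p of 0.0523 to 0.0551 for the 4 genes, and no filter left 1 in in vitro PSMPs. Leaving out each column in turn gave 0 to 6 for in vivo PSMPs, 0 to 3 for in vitro PSMPs, 0 to 6 for the difference, 0 to 4 and 0 to 5 for SAHA against con-in vitro and con, 0 to 1 and 0 to 0 for PSMPs & OE-Hdac3 against in vitro and in vivo PSMPs, and 2 to 7 between the controls. The same omissions gave 0 to 4336, 1096 to 5451, 618 to 5028, 1111 to 6401, 219 to 6657, 0 to 2389, 0 to 529 and 2615 to 6538 calls over all genes, in that order. The cause of these shifts was not tested.

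Signs changed for genes that were not called. Without single libraries the log2 fold change ran from -0.60 to 1.23 for Paics and from -2.70 to 5.38 for Shmt1 in in vivo PSMPs, and from -3.53 to 1.20 for Cad, from -1.13 to 0.62 for Paics and from -0.87 to 2.99 for Phgdh in in vitro PSMPs. It ran from -1.31 to 6.94 for Shmt1 in SAHA against con, and from -1.67 to 6.37 for Umps and from -11.47 to 1.69 for Shmt1 between the controls. With library totals Paics in in vitro PSMPs was 0.70. The cause was not tested. No called member changed sign in any alternative. Shmt2 kept its call in 20 of 21 alternatives for SAHA against con-in vitro and for con-in vitro against con, and in 15 of 21 in in vitro PSMPs.

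Replicate numbers are not tied to animals or batches by the labels, and same-numbered libraries did not deviate together (r of deviations from -0.288 to 0.0566). The replicate block, with the in vivo columns as 2 libraries, gave 5 called in in vivo PSMPs (the fifth was Shmt2, lower, -1.66, adjusted p = 0.0317), 2 in in vitro PSMPs, 3 for the difference, 3 and 3 for SAHA against con-in vitro and con, 0 and 0 for PSMPs & OE-Hdac3 against in vitro and in vivo PSMPs, and 4 between the controls. This setting counts the 1 in vivo PSMPs sample as 2, and 20% of all genes passed in in vivo PSMPs against con. Under the block Shmt1 in SAHA against con was 0.61, and Psat1 in SAHA against con-in vitro passed (adjusted p = 0.0429).

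Over all genes, 817 were called in in vivo PSMPs against con, 150 with the filter on 11 libraries, 0 in the compared groups alone (433 at an unadjusted p under 0.05), 1370 with no filter, 2693 by DESeq2, 4180 with the in vivo columns as 2 libraries and 3349 with the block. In in vitro PSMPs 2570 were called, 4228 with library totals, 3917 with 2 in vivo columns and 4602 by DESeq2. The difference had 1886, against 245 in its groups alone, 4013 with 2 in vivo columns, 3204 with the block and 4110 by DESeq2. SAHA had 3313 against con-in vitro (5327 by DESeq2) and 4511 against con (3000 with the filter at 50 counts, 1450 in the groups alone). PSMPs & OE-Hdac3 against in vitro PSMPs had 808 (1489, 5492 and 2576 with 2 in vivo columns, the groups alone and DESeq2) and against in vivo PSMPs 0 (118 with no filter, 1355 with 2 in vivo columns, 458 with the block, 7215 in the groups alone, 849 by DESeq2). The controls had 4205, and 836 in their groups alone. Library totals turned the split of higher to lower genes from 1435 and 1135 into 3470 and 758 in in vitro PSMPs, from 815 and 1071 into 1320 and 826 for the difference, from 1950 and 1363 into 3222 and 922 in SAHA against con-in vitro, from 309 and 499 into 548 and 308 in PSMPs & OE-Hdac3 against in vitro PSMPs, and from 2452 and 1753 into 1872 and 3025 between the controls.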
